A study of Mus musculus with 7 samples.

Results

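Cryba2, Mir375, Ccdc108, Nhej1 and Slc23a3 are neighbours of the hedgehog gene Ihh on mouse chromosome 1, and their contact with an enhancer region was followed across serial inversions. They are 5 of the 103 genes in the deposited gene tables. They were chosen by their place around Ihh between the breakpoints of Inv3 and Inv2, and that place was read from the scaled contacts in the same tables, so their values are given as a description and not as a test. The study compared the chromatin contacts of unaltered and CRISPR/Cas9-inverted chromosomes by capture Hi-C, a method that cross-links, cuts and religates chromatin and enriches the fragments of a chosen region before sequencing. There were 7 libraries with 1 library per condition. The limb bud libraries came from embryos at stage E11.5, with limb buds of 10 embryos in each, and were titled Distal. They were WT, the inversions Inv1, Inv2, Inv3 and Inv4, and Inv1DelCTCF, which by its name carries Inv1 and a deletion named after CTCF. The other library was Inv1 in embryonic stem cells (ESC), which are cultured pluripotent cells. The genotype label reads only wild type or mutant, and the labels did not state whether an unaltered chromosome remained beside the inverted one. The cell type label names the same stem cell line for every library, so tissue was taken from the titles and source. Contact maps carry no RNA, and tissue could not be checked against marker genes. All differences below are between single libraries and have no replicate check.

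Ihh encodes a secreted signal that sets the pace of cartilage growth in the developing limb, and enhancers of Ihh lie within the introns of Nhej1. Epha4 encodes an ephrin receptor, and its domain is rich in limb enhancers. An inversion that carries part of that domain to another gene neighbourhood can bring limb enhancers near promoters that otherwise meet few of them. Chromatin domains are the stretches within which contacts are frequent, and CTCF is a DNA-binding protein often found at their borders.

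Cryba2 encodes a beta-crystallin of the eye lens, and Mir375 a microRNA known from pancreatic islets. Ccdc108, whose current symbol in the RefSeq table is Cfap65, encodes a protein of cilia and flagella. Nhej1 encodes a factor that joins broken DNA ends. Slc23a3 belongs to the family of the ascorbate transporters. In the RefSeq annotation of GRCm38.p6, 6 genes lie between Fev and Cnppd1: Cryba2, Mir375, Cfap65, Ihh, Nhej1 and Slc23a3, which is also their order in the deposited tables, where they fill places 53 to 58. Nhej1 takes up most of this span, with a gene length of 157881 bp.

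Mir375 is the 1 member whose product is an RNA short enough to show whole. Its hairpin and 1 mature arm were taken from RefSeq (GRCm38.p6), the hairpin at chr1:74900658-74900721 and the arm at chr1:74900696-74900717, both on the minus strand. Capitals mark the mature arm in the hairpin and the seed, bases 2 to 8, in the arm.
Mir375 hairpin: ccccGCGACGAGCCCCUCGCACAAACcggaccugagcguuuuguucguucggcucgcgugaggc
mmu-miR-375-5p: gCGACGAGccccucgcacaaac
None of the other mature miRNAs in the RefSeq table shared this seed (0 of 1738 entries in all). The mature arm from the other side of the hairpin was not listed there, so its seed was not compared. The link to pancreatic islets given above is not attributed to the arm shown.

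The gene tables measure contact at start sites, so the start sites available from RefSeq are shown for Cryba2, Nhej1 and Slc23a3, which are the ends and the peak of the group. Each window runs from 250 bases before to 50 after the start, 5′ to 3′ on the minus strand in GRCm38.p6, at chr1:74893094-74893393 for Cryba2, chr1:75125177-75125476 for Nhej1 and chr1:75133841-75134140 for Slc23a3. Capitals mark matches to TATAAA (the TATA box) or GGGCGG (the GC box). Those 2 motifs and CCAAT were searched on both strands.
Cryba2: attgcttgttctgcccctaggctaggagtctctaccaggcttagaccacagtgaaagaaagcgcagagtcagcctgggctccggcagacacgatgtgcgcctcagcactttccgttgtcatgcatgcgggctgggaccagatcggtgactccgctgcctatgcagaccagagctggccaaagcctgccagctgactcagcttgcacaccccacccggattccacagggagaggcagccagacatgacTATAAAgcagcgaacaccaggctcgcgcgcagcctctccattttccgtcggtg
Nhej1: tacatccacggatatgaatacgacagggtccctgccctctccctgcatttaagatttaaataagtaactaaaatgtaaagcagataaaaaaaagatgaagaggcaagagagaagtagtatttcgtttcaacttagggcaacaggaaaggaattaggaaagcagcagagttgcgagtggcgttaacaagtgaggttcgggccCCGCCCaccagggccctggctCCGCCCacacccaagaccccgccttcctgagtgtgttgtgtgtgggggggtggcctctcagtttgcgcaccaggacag
Slc23a3: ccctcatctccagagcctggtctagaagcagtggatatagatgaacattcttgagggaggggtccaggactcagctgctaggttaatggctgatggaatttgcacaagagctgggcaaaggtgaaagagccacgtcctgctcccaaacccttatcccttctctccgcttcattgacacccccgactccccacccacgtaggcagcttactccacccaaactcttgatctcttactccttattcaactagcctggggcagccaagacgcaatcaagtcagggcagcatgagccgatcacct
Cryba2 held TATAAA on its own strand at -3 to 2 with the start counted as 0. This motif was present in 13.6% of 32851 RefSeq promoter windows. Nhej1 held GGGCGG on the opposite strand at -49 to -44 and at -28 to -23, where it reads CCGCCC, and 35.7% of windows held it. CCAAT was in none of the 3 windows and in 37.4% of all. Slc23a3 matched none of the motifs. The windows had 15 CpG in Cryba2, 10 in Nhej1 and 6 in Slc23a3, against a median of 7 over all windows, and their GC content was 59.3%, 50.7% and 53.3% against a median of 52.7%. The starts of Nhej1 and Slc23a3 were 8.66 kb apart, and that of Cryba2 was 7.58 kb from the upstream end of the Mir375 hairpin.

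The tables list 1 scaled contact per gene, between its start site and the enhancer region, for WT and Inv1 to Inv4. The sources used here do not give where the enhancer region lies or how values were scaled. Each table has a scale of its own, and the tables hold no counts, so the depth behind a gene's value is unknown. A gene's place among the 103 genes of its table does not depend on the scale of that table. Values below 0 occurred for 25, 13 and 12 of the 103 genes in Inv2 to Inv4, none of them a member. A contact cannot be negative, so an amount not stated in the labels was taken off in these tables. In Inv2, 7 of the 25 values below 0 lay within 1% of one multiple of WT, whereas in Inv3 and Inv4 no multiple was shared by more than 2 of 13 and 3 of 12. How much was taken off the members is therefore not known, and their values in Inv2 to Inv4, with the ratios to WT, are those left after it. No member shared all its values with another gene, whereas 30 of the 103 genes did.

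In WT limb buds the 5 genes had low and similar contact, from 0.587 to 0.814 scaled units. Over all 103 genes the median was 0.447 in WT and the highest value was 7.68, that of Epha4. The 5 genes took places between 27 and 43. Ihh in their midst was lower, at 0.260 and place 69.

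Nhej1 had the highest contact of the group on every inverted chromosome except Inv3. Its scaled contact was 0.709 in WT limb buds. On the Inv1 and Inv2 chromosomes it reached 16.8 and 20.04, and on Inv3 and Inv4 it had 2.07 and 5.90. This DNA repair gene took place 31 of 103 in the WT table, place 4 under Inv1 and place 1 under Inv2, and places 38 and 14 under Inv3 and Inv4. In Inv1 its value was 73.1% of that of Ptprn, the highest gene there at 22.99. Relative to WT its log2 ratio, with a pseudocount of 0.5, was 3.84, 4.09, 1.09 and 2.40 from Inv1 to Inv4.

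Slc23a3, the transporter gene next to Nhej1, followed the same order on the first 2 inversions at a lower level. Its scaled contact was 0.591 without an inversion, 9.78 with Inv1 and 17.03 with Inv2, while Inv3 and Inv4 gave 2.08 and 2.10. It took place 2 in the Inv2 table, place 13 in that of Inv1 and place 48 in that of Inv4. Its log2 ratio to WT was 3.24, 4.01, 1.24 and 1.25 in Inv1 to Inv4. Although the starts of both genes lie close together, Nhej1 was 1.72 times Slc23a3 in Inv1 and 2.81 times in Inv4. The ratio was 1.20 in WT and 1.18 in Inv2, and 0.992 in Inv3.

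The 3 genes on the far side of Ihh had lower contact than Nhej1 and Slc23a3 in Inv1 and Inv2. Ccdc108, the cilia gene, was at 0.814 in WT, had 6.21 and 8.95 with Inv1 and Inv2, and had 3.16 and 3.53 with Inv3 and Inv4. It was the member with the highest contact in Inv3. Cryba2, the crystallin gene, had 0.587 in WT and 6.62 and 8.92 with Inv1 and Inv2. With Inv3 and Inv4 it had 1.03 and 2.76. Mir375, the microRNA gene whose hairpin is shown above, had 0.784 in the WT table, 5.62 and 6.98 in those of Inv1 and Inv2, 0.0681 in that of Inv3 and 2.77 in that of Inv4. Mir375 in Inv3 was the 1 case of 20 in which the deposited value of a member lay below WT, and since the amount taken off that table is not known, the direction of this difference is not settled. The log2 ratios of Ccdc108 were 2.35, 2.85, 1.48 and 1.62 in Inv1 to Inv4, those of Cryba2 2.71, 3.12, 0.49 and 1.59, and those of Mir375 2.25, 2.54, -1.18 and 1.35.

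**Figure D1:**
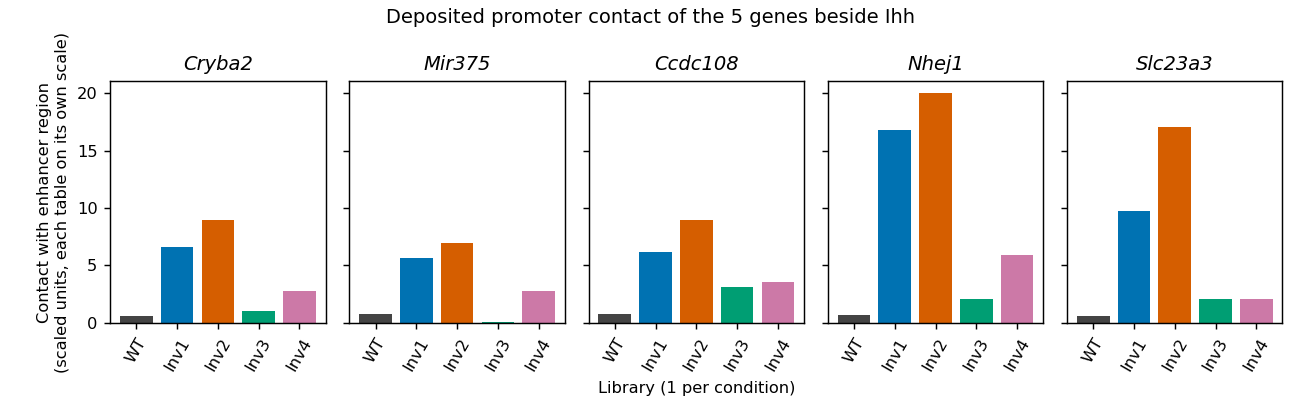
Bars give the deposited contact of each gene with the enhancer region (y axis, scaled units from 0) in WT and Inv1 to Inv4 (x axis, 1 library each, so no error bars). Every gene is highest in Inv2, and Nhej1 reaches 16.8 in Inv1 and 20.04 in Inv2.

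On the Inv1 chromosome all 5 genes lay over 2-fold above WT and 0 over 2-fold below, beside 35.9% and 3.88% of the 103 genes. On Inv2 the 5 lay above and 0 below, beside 19.4% and 16.5% of all genes. Of the 5, 3 lay above and 1 below with Inv3, beside 45.6% and 10.7% of all genes. With Inv4 the counts were again 5 above and 0 below, beside 52.4% and 6.8%. The place of the genes was read from these contrasts, so nothing is drawn from these counts. The median log2 ratio of the 5 genes was 2.71, 3.12, 1.09 and 1.59 from Inv1 to Inv4, and that of all genes 0.62, 0.0044, 0.81 and 1.08. When the ratios were centred on the median of all genes, 0 of the 5 remained over 2-fold above in Inv3 and 1, Nhej1, in Inv4. With a pseudocount of 5 the numbers above were 3 in Inv1, 0 in Inv3 and 0 in Inv4. In Inv2 all 5 stayed above at both settings. The share of all genes was not computed at these settings, so these counts cannot be set beside it.

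A set of 35 genes far from the inversions gave a measure of the spread between tables. The SD of their difference to WT was 0.321, 0.406, 0.608 and 0.601 scaled units, from Inv1 to Inv4. The members were chosen from the same values, so they are not counted against this spread. In Inv3 the difference to WT was -0.716 for Mir375, 0.442 for Cryba2, 1.36 for Nhej1, 1.49 for Slc23a3 and 2.35 for Ccdc108. These are given as a description.

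From Inv1 to Inv2 the deposited value was higher for each member, by 1.19 times for Nhej1, 1.24 for Mir375, 1.35 for Cryba2, 1.44 for Ccdc108 and 1.74 for Slc23a3. These factors join 2 tables that were scaled separately. Between Inv3 and Inv4 the members did not move together. Nhej1 was 2.86 times as high in Inv4 as in Inv3, whereas Ccdc108 and Slc23a3 were at 1.11 and 1.009 times. Cryba2 had 1.03 and 2.76, and Mir375 0.0681 and 2.77. Within a table, the highest member was 1.39 times the lowest in WT and 2.81 to 2.99 times in Inv1, Inv2 and Inv4. For Inv3 no such ratio is given, since its lowest member, Mir375, was close to 0.

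The genes on either side of the group had another order of inversions. Fev, a transcription factor gene of serotonergic neurons that precedes Cryba2, had 1.31 in WT, 4.28 with Inv1, 6.73 with Inv2, 36.4 with Inv3 and -0.066 with Inv4. Fev was thus the highest gene of the Inv3 table, in which the adjoining Cryba2 took place 56. Cnppd1, which follows Slc23a3, had 0.857 in WT and 12.9 with Inv1, but 0.438 with Inv2, 2.79 with Inv3 and 2.38 with Inv4. In Inv1 Nhej1 was 1.31 times Cnppd1. In Inv2 the value of Cnppd1 was lower than that of the highest far gene (0.672), so no ratio to it is given. Ihh, which lies among the members, had 6.31 and 8.85 with Inv1 and Inv2, -0.053 with Inv3 and 1.03 with Inv4. Nhej1 was 2.66 times Ihh in Inv1 and 2.26 times in Inv2.

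Wider lists of neighbours are given by medians. The 12 genes from Cnppd1 to Resp18 had medians of 0.816, 13.4, 0.382, 2.70 and 2.81 from WT through Inv1 to Inv4, against 0.709, 6.62, 8.95, 2.07 and 2.77 for the 5 members. Of the 12, the number over 2-fold above WT was 12, 1, 7 and 10 from Inv1 to Inv4, with 5 below in Inv2 and 1 below in Inv3. Ihh with the 4 genes from Wnt6 to Fev had medians of 0.401, 4.41, 6.73, 16.6 and 0.766, with 5, 5, 4 and 2 genes above and 1 below, in Inv4. By median the members stood between the lists in Inv1 and above both in Inv2. They were chosen from these values, so nothing is drawn from this order. Ihh, which lies among the members but is counted in the second list, had 8.85 in Inv2.

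Likeness of profiles was measured as the Euclidean distance of log2 values (pseudocount 0.5) over the 5 tables, where 0 means equal values. Values below 0 were set to 0, as for Ihh in Inv3. The group was chosen from these values, so the distances are a description and nothing is drawn from them. The closest pair of members was Cryba2 and Slc23a3, at 1.33, with Cryba2 and Ccdc108 at the same distance to 2 decimals. Nhej1 was nearest to Slc23a3, at 1.53. Outside the group Ihh was nearest to Mir375, at 1.39, and to Cryba2, at 2.01. Stk11ip (2.198) and Ankzf1 (2.31) came next for Cryba2, and Atg9a and Ankzf1, which share all their values, for Mir375 (2.09). For the other 3 members the nearest gene outside was A630095N17Rik, at 2.01 from Ccdc108, 2.58 from Slc23a3 and 2.77 from Nhej1. It was followed by Dnpep (2.15) and Stk11ip (2.24) for Ccdc108, by Ihh (2.76) and Stk11ip (3.06) for Slc23a3, and by Resp18 (3.07) and Stk11ip (3.44) for Nhej1.

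The maps add Inv1DelCTCF and Inv1 ESC, for which no gene table was analysed, and give counting errors. They cover 71 to 81 Mb in mm9 at 10 kb per bin, balanced so that each bin has the same total. Read pairs recovered from the balanced values numbered 5156889 in WT, 3904477 in Inv1, 3997308 in Inv1DelCTCF and 4310627 in Inv1 ESC. Values below 0 filled 29.7%, 31.3% and 28.8% of bin pairs in the maps of Inv2 to Inv4. Between bins outside the inversions, most values below 0 matched a fixed multiple of the WT map. These maps are therefore taken as a library minus a share of WT. The match was not measured for the stretch or the moved part, where the same multiple was assumed. For Inv2 to Inv4 the read pairs and counting errors below are approximate. Intervals cover counting error only.

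The stretch between the Inv3 and Inv2 breakpoints spans 180 kb (18 bins) at chr1:74950001-75130000 in mm9, and its assignment to the 5 genes and Ihh rests on gene order. Breakpoints were taken as resolved to 1 or 2 bins, which was not tested on simulated maps with WT subtracted. In GRCm38.p6 the starts of Cryba2 and Slc23a3 were 240.7 kb apart, which is longer than this stretch. Gene positions in mm9 were not used here, so the bin of each gene was not determined, and the outermost genes may lie in bins left out at the breakpoints. The moved part of the Epha4 domain, inverted in all 4, spans 260 kb at chr1:75620001-75880000 in mm9. The borders of this domain were set where contact across a bin was lowest in the WT map, within search windows fixed beforehand. Epha4 itself was not placed in a bin, so the name of the domain was not checked against its position. In Inv1 and Inv2 the stretch stays in place and the moved part is brought toward it. In Inv3 and Inv4 the stretch is inverted too and comes toward the rest of the Epha4 domain (75.9 to 77.52 Mb).

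In WT the stretch devoted 0.905% ± 0.0284 (counting SE) of its contacts to the moved part, from 1475 read pairs. In Inv1 the share was 9.72% ± 0.113 (11603 read pairs), and in Inv2 it was 15.4% ± 0.196. In Inv3 it was 1.10% ± 0.0711 and in Inv4 1.88% ± 0.0839. Contact was thus 10.7 times WT in Inv1 and 17.0 times in Inv2, and 1.22 and 2.08 times in Inv3 and Inv4. The median member of the gene tables, made from the same libraries, put them in the same order. The members were chosen from those tables, which were scaled separately, so this order gives no support to the maps. Inv2 exceeded Inv1 by 5.66 percentage points (95% counting interval 5.21 to 6.10) and Inv4 exceeded Inv3 by 0.786 (0.570 to 1.0012). Inv3 exceeded WT by 0.195 (0.0447 to 0.345), the smallest of the differences. That interval leaves out any error in the share of WT taken off the Inv3 map. WT was also taken off the Inv2 and Inv4 maps, but not off that of Inv1. The shares of Inv1 and Inv2 thus rest on unlike totals, and the interval of their difference leaves this out. The ratio of Inv3 to WT ran from 1.09, with contacts over 20 kb only as the total, to 1.27, with values below 0 set to 0.

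Measured against the mean contact at the same distance in the same map, the increase was smaller. Observed over expected contact was 0.290 in WT. It was 1.59 and 1.61 with Inv1 and Inv2 and 0.320 and 0.5 with Inv3 and Inv4. Inv1 and Inv2, which differed by 1.58 times in share, were thus nearly level at equal distance, with the stretch closer to the moved part in Inv2. WT was taken off the Inv2 map but not off the Inv1 map, and the part of this step was not tested. The ratio to WT on this measure was 5.50 in Inv1 and 5.55 in Inv2.

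In Inv1DelCTCF the share was 6.91% ± 0.0957 (8171 read pairs), which is 71.1% of that in Inv1 and 7.64 times that in WT. The difference from Inv1 was -2.80 percentage points (95% counting interval -3.09 to -2.52). Observed over expected contact was 1.07 in place of 1.59. In Inv1 ESC the share was 10.5% ± 0.113 (14301 read pairs), 0.83 percentage points above Inv1 limb buds (0.517 to 1.14). No WT map of stem cells was analysed here, so the contact of the stretch on an uninverted chromosome in these cells is not known.

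Within the stretch the share was uneven in Inv1, Inv2, Inv1DelCTCF and Inv1 ESC, and was higher at the end that is nearer Slc23a3 by gene order. In WT the first 3 bins, on the Inv3 side, averaged 0.904% and the last 3, on the Inv2 side, 0.965%. In Inv1 these values were 7.79% and 14.2%, and in Inv2 10.2% and 27.9%. In Inv3 they were 0.941% and 1.47%, and in Inv4 1.59% and 2.22%. In these 2 maps 1 of the last 3 bins had no value, so the last 3 bins with a value were averaged. The last bin of Inv3 had 2.46% ± 0.400, and the bin before it 0.842% ± 0.561 from about 14 read pairs. The last 3 bins thus had 1.83 times the share of the first 3 in Inv1 and 2.73 times in Inv2, against 1.07 times in WT. In Inv1DelCTCF the values were 5.75% and 9.53%, and in Inv1 ESC 7.02% and 16.9%. The side with the higher share is that of Nhej1 and Slc23a3, the genes with the higher contact in the Inv1 and Inv2 tables. It is also the side nearer to the moved part in those chromosomes, and the part of distance in the order of the genes was not tested.

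**Figure D2:**
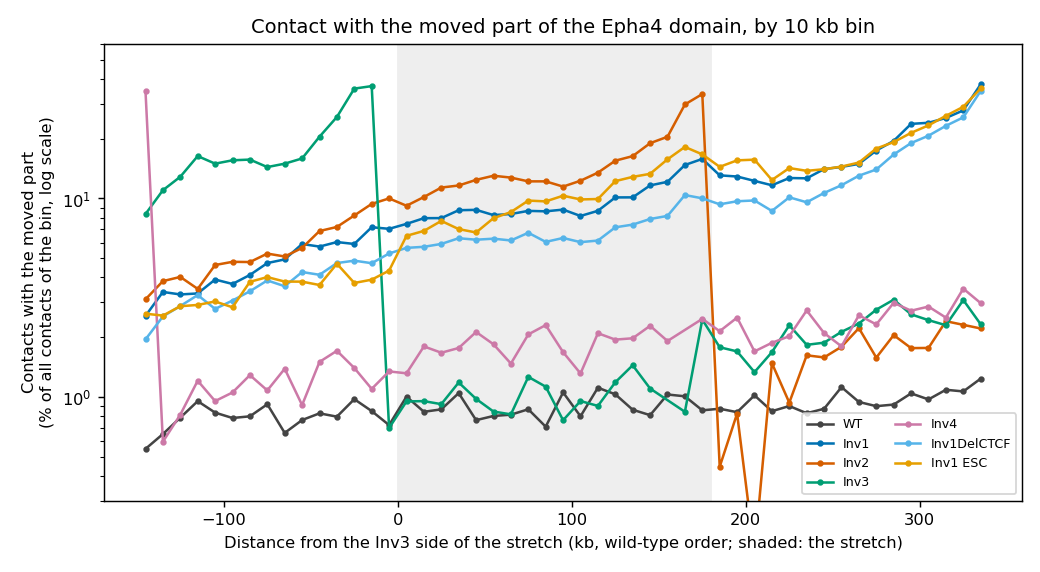
Points give the share of each 10 kb bin's contacts that fell on the moved part (y axis, % on a log scale) by distance from the Inv3 side of the stretch (x axis, kb), with the stretch shaded and 1 line per library. Inv1, Inv2, Inv1DelCTCF and Inv1 ESC lie above WT over the whole stretch, Inv2 drops at its far edge and Inv3 at its near edge, and values of Inv2 below the axis near 200 kb are not shown.

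In the maps, turned back to WT order, the share changed abruptly at the edges of the stretch. These edges were set at the fitted breakpoints, and bins on either side lie apart on the inverted chromosome. A jump there was thus fixed by the choice of edges. In Inv3 the share was 36.8% ± 0.947 in the bin 20 kb before the stretch and 0.698% ± 0.197 in the bin at 10 kb before it. In Inv2 the highest bin of the stretch had 33.6%. By gene order the neighbours at these edges are Fev and Cryba2, at 36.4 and 1.03 scaled units in Inv3, and Slc23a3 and Cnppd1, at 17.03 and 0.438 in Inv2. No gene was placed in a bin, and the group was chosen from these values.

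The last 2 bins of the stretch stood above their surroundings in Inv1. Their share was 15.3% ± 0.596 (1046 read pairs), against 11.3% ± 0.334 in the 3 bins before and 12.7% ± 0.275 in the 3 bins after. Relative to the mean of these flanks the ratio was 1.27 ± 0.0546 in Inv1, 1.17 ± 0.0629 in Inv1DelCTCF, 1.19 ± 0.0453 in Inv1 ESC and 1.03 ± 0.156 in WT, the last from 78 read pairs. These bins were picked after their values were seen, and the first of them is sparse in read pairs.

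Along the moved part, observed over expected contact of the stretch was highest at 1 end in Inv1 and Inv2. This was the border end, which on both inverted chromosomes lies farther from the stretch than the breakpoint end. In the first 40 kb inside the border of the Epha4 domain, observed over expected contact was 3.34 in Inv1 and 3.52 in Inv2, against 1.28 and 1.26 in the other 22 bins. In WT the values were 0.343 and 0.280, in Inv3 0.323 and 0.320, and in Inv4 0.655 and 0.472. In Inv1DelCTCF they were 1.20 and 1.05, so the border end was at 1.15 times the rest in place of 2.62 times in Inv1. In Inv1 ESC they were 2.12 and 1.39, a ratio of 1.52. Away from the border end Inv1DelCTCF was at 1.05 against 1.28 in Inv1. The stretch thus had less contact in Inv1DelCTCF than in Inv1 along both portions, with the wider gap at the border.

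**Figure D3:**
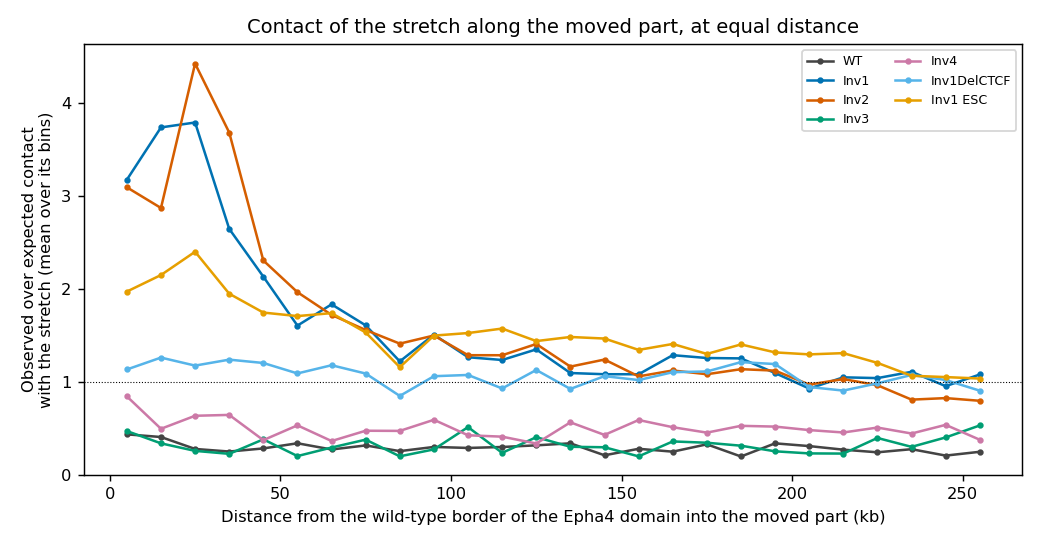
Points give the contact of the stretch with each 10 kb bin of the moved part, as observed over expected contact at that distance (y axis, from 0; dotted line at 1), by distance from the WT border of the Epha4 domain (x axis, kb). Inv1 and Inv2 peak within the first 40 kb, Inv1 ESC peaks lower, and Inv1DelCTCF stays near 1.

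The partners that the stretch lost differed between inversions. In WT, 50.8% of its contacts were within itself, 21.6% with sequence before it, 19.4% with sequence up to the border of the Epha4 domain, 3.38% with the rest of that domain and 3.83% beyond. In Inv2 the share with sequence up to the border was 9.36%, and in Inv1 15.2%. Contact with sequence before the stretch was 19.4% in Inv1 and 18.4% in Inv2. Contact with the rest of the Epha4 domain was 4.29% and 4.27%, higher than in WT by less than 1 percentage point.

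In Inv3 and Inv4 the stretch met the rest of the Epha4 domain in place of the moved part. This share was 25.8% in Inv3 (95% counting interval 25.3 to 26.3) and 11.51% in Inv4 (11.1 to 11.9), against 3.38% in WT (3.27 to 3.49). Observed over expected contact with that region was 1.60 in Inv3, 0.779 in Inv4 and 0.586 in WT. Contact with sequence before the stretch was 5.39% in Inv3 and 16.5% in Inv4, and contact beyond the Epha4 domain was 12.5% and 8.94%. In Inv3, where only bins at the breakpoint separate the stretch from its new neighbour, contacts within the stretch were 38.2% of its total. In Inv1DelCTCF and Inv1 ESC the rest of the domain took 4.43% and 3.14%.

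**Figure D4:**
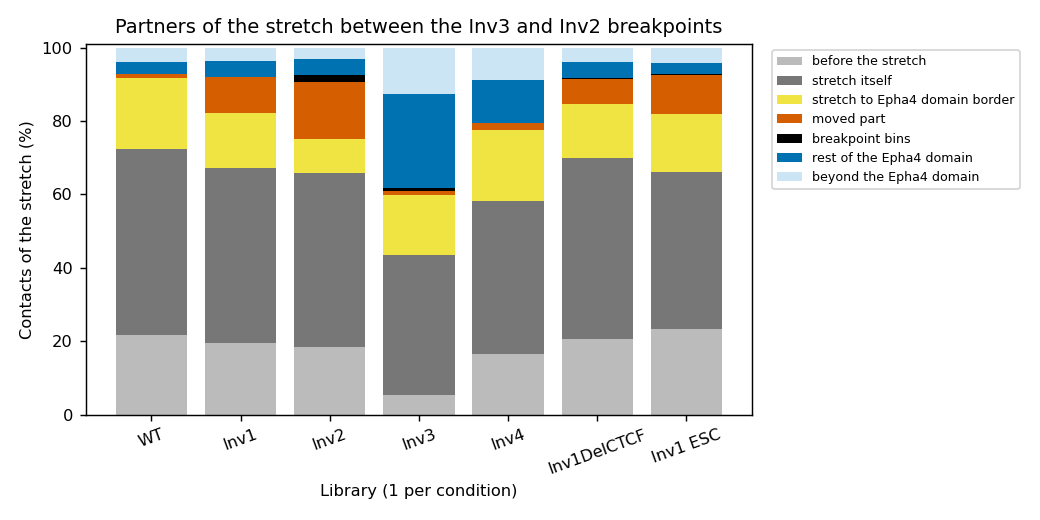
Stacked bars give the share of the contacts of the stretch (y axis, %, from 0) that fell on each region, 1 bar per library (x axis). The moved part takes 9.72% in Inv1 and 15.4% in Inv2, and the rest of the Epha4 domain takes 25.8% in Inv3 and 11.51% in Inv4.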

How the data were processed

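Capture Hi-C maps of 7 libraries and gene tables of 5 were deposited, with 1 library per condition. Reads were processed with Bowtie2 2.2.6 and Juicer on mm9, per the submitters' processing notes. The gene tables hold scaled contact scores made by the authors, with an unstated scale. The maps of WT, Inv1, Inv1DelCTCF and Inv1 ESC hold balanced contact signal, as deposited by the authors. Those of Inv2 to Inv4 hold deposited scores below 0 after subtraction of the WT map. The weights of 0.423, 0.369 and 0.334 were found from values outside the inversions. Read pairs were recovered by fitting 1 factor per bin, and 99.9% to 100.0% of values under 20 lay within 0.1 of a whole number. Mutant maps, written in the order of the rearranged chromosome, were turned back to WT order. Contact share is the percentage of a stretch's total balanced signal that falls on a region. Counting errors come from read pairs. Gene ratios are log2(value + 0.5) with values below 0 set to 0. No test between conditions was possible with 1 library each. Fitting was tested on simulated maps without subtraction of WT, so the fits of Inv2 to Inv4 were not covered. Python 3.11.15 and NumPy 2.4.6 were used. All 103 symbols matched RefSeq, 98 as symbols and 5 as synonyms. The genes, lists and regions were chosen with earlier results of these data known. The named genes are the 5 members, Ihh, the next gene on either side, the highest gene of each table and, for each member, the 3 most alike genes outside the group. Alternatives were other pseudocounts, centring, a filter on low values, trimmed regions, another total, distance correction and values below 0 set to 0.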

Additional observations from a re-analysis of the deposited data

How the results depend on the processing

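The number of the 5 genes over 2-fold above WT was the least stable result. With a pseudocount of 5 it was 3 in Inv1, 0 in Inv3 and 0 in Inv4, and with ratios centred on the median of all genes it was 0 in Inv3 and 1 in Inv4. In Inv2 it was 5 at every setting. The share of all genes was computed at the main setting only. The 1 gene below in Inv3, Mir375, left 0 below with a pseudocount of 5 and 0 with genes under 0.1 left out. A pseudocount of 0.05 and centring on the far genes left these counts within 1.5 times. Of the 20 log2 ratios, 19 were above 0 as reported. A pseudocount cannot change the sign of a ratio here, so the other pseudocounts do not test this count. Centring on the far genes kept 19 above 0. Centring on all genes left 18, since Cryba2 in Inv3 went from 0.49 to -0.31. For the maps, the ratio of contact share to WT with observed over expected contact was 5.50 and 5.55 for Inv1 and Inv2, 1.73 for Inv4, 3.70 for Inv1DelCTCF and 5.19 for Inv1 ESC. In Inv2 it was 15.4 without the outermost 2 bins on either side of the stretch and 15.9 with values below 0 set to 0. With contacts over 20 kb only as the total it was 1.85 in Inv4 and 10.5 in Inv1 ESC. The distance correction itself divides by the nearer expected contact, and other causes were not tested. No paired analysis was possible because each condition has 1 library. In the gene tables depth is unknown, and in Inv3 and Inv4 1 of 18 bins of the stretch had no value.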
